A study of Mus musculus with 34 samples.

Results

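The genes described here encode the proteases and the proton pump of the lysosome, with a few of its abundant membrane proteins and enzymes. They were taken by gene symbol: the cathepsins (Cts followed by 1 letter), the subunits of the vacuolar proton pump (Atp6v0 and Atp6v1), Lamp1 and Lamp2, Cd68, Hexa, and Npc1 and Npc2. Of the 9851 genes listed in any of the 3 deposited tables, 34 are described here, with 33 in each table and 32 in all of them. These members are 12 cathepsins, 15 pump subunits, 1 pump pseudogene (Atp6v0c-ps2), 3 LAMP-family genes and 3 genes of glycolipid breakdown and cholesterol export.

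Cathepsins are made as inactive precursors, sorted to the lysosome and cut into active proteases at low pH. The proton pump has a cytosolic V1 sector that hydrolyses ATP and a membrane V0 sector through which protons pass into the lumen. Intestinal macrophages use this compartment to degrade engulfed bacteria and dead cells and to process antigen for MHC class II.

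The study sequenced polyadenylated RNA of sorted mouse colonic macrophages, in 34 libraries of C57BL/6 mice that fall into 10 groups by title. The sort took CD45+ CD11b+ CD11c-intermediate CD64+ Ly6c- CD103- cells of the colonic lamina propria. In the first table, 3 CXhet libraries stand against 3 IL10R libraries, from untreated mice of 6 to 7 weeks. The second table, also of mice of 6 to 7 weeks, holds 2 CX, 5 IL10R and 4 IL10R_P19 libraries without treatment, and 4 IL10R_abx and 3 littermate_abx libraries from mice given antibiotics in the drinking water. The third table comes from bone marrow chimeras at 4 weeks after chimerism, with 4 wt, 3 ko_igg and 3 ko_ly6g libraries. Its treatment label names the anti-Ly6G injection for all 10 libraries, so the titles were followed. The series title speaks of macrophages that lack the IL-10 receptor alpha chain and make IL-23. The labels do not spell out CX, P19 or 5C5, the driver of the deletion, or the genotype of the littermates. They also do not say that libraries are separate animals, so p-values measure the spread between libraries, which may be technical.

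Values are normalised read counts, in which the reads of a library share 1 divisor, so levels are compared for 1 gene across the libraries of 1 table. Recovered reads per library were 1458726 to 2487074 in the first table, 747046 to 2775974 in the second and 1028567 to 4525047 in the third, where 2 libraries could not be recovered. Of the 4 IL10R_abx libraries, 3 had the fewest reads of the second table, at 747046 to 877627, and IL10R_abx_497 had 1646887. Il10ra, the gene named in the study's title, ranged from 9.26 to 361 in the IL10R libraries of the first table and from 371 to 689 in the CXhet libraries. The value of 361 belongs to the library labelled IL10R 2, which therefore lies next to the CXhet range. In the second table Il10ra was at most 31.2 in every IL10R, IL10R_P19 and IL10R_abx library, and at least 138 in every CX and littermate_abx library. In the third it was 32.2 to 111 in the ko_igg and ko_ly6g libraries and 247 to 827 in the wt libraries. Macrophage markers were present in every group: 12 of 14 were listed in the first and second tables and 11 of 14 in the third.

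The sequences before the start sites of 6 members are shown because many lysosomal genes carry the CLEAR element, an E-box read by TFEB and TFE3, and because Ctss carries a stretch like an interferon-stimulated response element. They are 75 bases each from RefSeq on GRCm38.p6, 5′ to 3′ on the gene's strand, with the motif in capitals. The first 5 carry the E-box core CACGTG, and the Ctss stretch carries GAAA, any 2 bases and GAAA.
Lamp1, chr8:13159086-13159160, plus strand, bases 75 to 1 before the start: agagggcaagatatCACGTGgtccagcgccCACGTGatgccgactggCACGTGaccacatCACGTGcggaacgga
Atp6v0b, chr4:117887330-117887404, minus strand, bases 75 to 1: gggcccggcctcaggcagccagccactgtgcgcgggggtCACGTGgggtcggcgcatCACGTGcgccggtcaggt
Ctsd, chr7:142387873-142387947, minus strand, bases 120 to 46: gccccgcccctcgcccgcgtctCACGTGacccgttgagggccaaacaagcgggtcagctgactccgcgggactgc
Atp6v1a, chr16:44139335-44139409, minus strand, bases 150 to 76: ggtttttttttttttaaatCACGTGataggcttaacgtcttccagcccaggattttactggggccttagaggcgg
Ctsl, chr13:64370696-64370770, minus strand, from base 250: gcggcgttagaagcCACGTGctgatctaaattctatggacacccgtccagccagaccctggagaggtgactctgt
Ctss, chr3:95526711-95526785, plus strand, bases 75 to 1: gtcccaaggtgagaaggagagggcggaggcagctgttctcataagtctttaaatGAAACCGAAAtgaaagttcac

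Promoter windows of 300 bases, from 250 before to 50 after the start, were at hand for 23 of the 34 members. The core CACGTG, which reads the same on both strands, was in 9 of the 23 (39.1%), against 8.09% of 27025 gene symbols with such a window. The longer form TCACGTGA, which contains the core, was in 5 members (21.7%) against 1.12% of all symbols. The form GAAA, 2 bases, GAAA, searched on both strands, was in 4 members (17.4%) against 3.99%. The shown Lamp1 stretch holds 4 cores and the Atp6v0b stretch 2. These are letter matches in 1 window and not measured binding sites.

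In the first table, Ctss rose and Ctsf fell in the IL10R libraries, and no pump subunit passed the test. Of 32 members above the filter on low values, 2 were called by limma at a Benjamini-Hochberg adjusted p under 0.05, while 8.69% of the 6766 genes tested were called. Of the genes tested, 4.57% were called higher and 4.12% lower. The members' count is near this background.

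Ctss, the cathepsin S that trims the invariant chain from MHC class II, stood at 5452, 4400.2 and 3628 in CXhet and at 7634, 11168 and 8522 in IL10R libraries. Every IL10R library lay above every CXhet library. The difference was 1.02 on the log2 scale (SE 0.25, limma with Benjamini-Hochberg adjusted p = 0.0419). Ctsf, a cysteine protease that also takes part in invariant-chain processing, stood at 103, 117 and 111 in CXhet against 31.7, 6.48 and 17.7 in IL10R libraries. Those IL10R values rest on 24, 5 and 15 reads. Ctsf fell by 2.71 on the log2 scale (SE 0.51, limma adjusted p = 0.014).

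The other cathepsins did not pass, and they did not lie on 1 side. Ctsz, cathepsin X, a carboxypeptidase, stood at 2213, 1371 and 1001 against 2532, 4936 and 2676, a log2 difference of 1.15 with a limma adjusted p of 0.0819. Ctsl, the endopeptidase cathepsin L, stood at 1649, 1525 and 1351 against 756, 1269 and 785, a log2 difference of -0.72 with a limma adjusted p of 0.106. For both genes the 2 groups did not overlap.
Ctse, the aspartic cathepsin E, stood at 103, 121 and 149 against 68.8, 19.4 and 49.4, without overlap, and missed the threshold in limma (log2 difference -1.56, adjusted p = 0.0507) while edgeR called it (adjusted p = 0.0457). Ctsb, the abundant cathepsin B, stood at 10659, 9280.4 and 7055 against 7290.0, 6141 and 6488, and its groups overlapped. Ctsd, the aspartic cathepsin D, stood at 3167, 2711 and 1886 against 2764, 5035 and 2779.5, again with overlap. The log2 difference between Ctss and Ctsl within a library, which needs no scaling factor, was 1.42 to 1.72 in CXhet and 3.14 to 3.44 in IL10R libraries. In the second table it was 1.834 and 2.655 in CX and 2.395 to 3.266 in IL10R libraries, with overlap. In the chimeras it was 2.646 to 3.642 in wt and 3.363 to 3.722 in ko_igg libraries, also with overlap. This pair was chosen after its values were seen, and it carries no test.

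**Figure D1:**
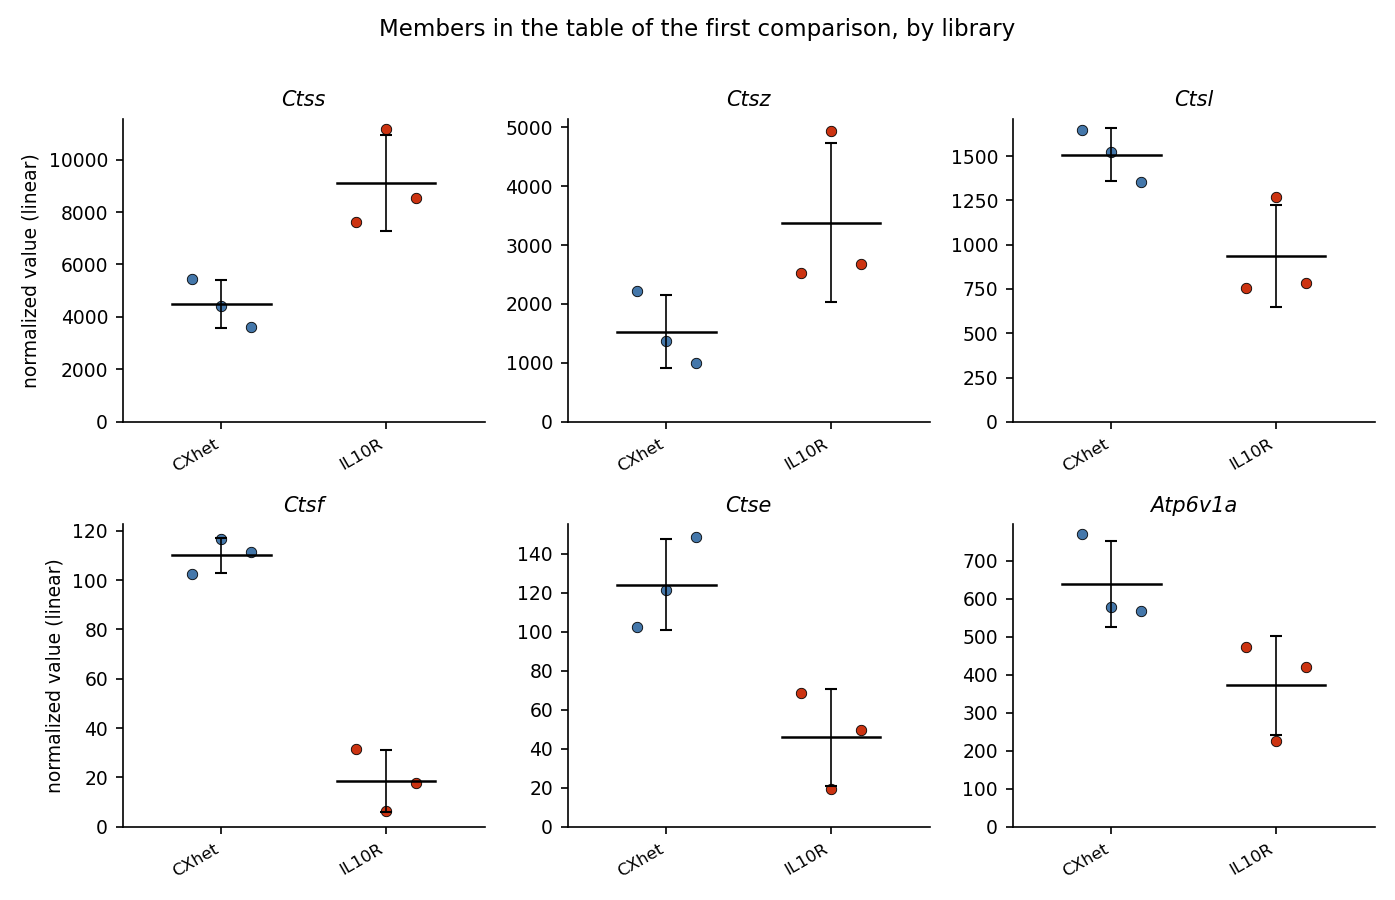
Normalised read counts (linear axis from 0) of 6 members in the first table, 1 dot a library, with the group mean as a line and the SD as an error bar. Ctss and Ctsz lie higher and Ctsl, Ctsf, Ctse and Atp6v1a lower in the IL10R libraries, with no overlap in any of the 6 panels, and of these Ctss and Ctsf passed the test.

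Pump subunits in this table gave 0 calls of 14 tested by limma and 0 by edgeR, whose 3 calls were Ctss, Ctsf and Ctse. At an unadjusted p under 0.05 in limma were 2 pump subunits, beside 1780 of the 6766 genes tested. Atp6v1a, the catalytic V1 subunit, stood at 769, 579 and 568 in CXhet against 472, 225 and 420.1 in IL10R libraries, without overlap (log2 difference -0.83, limma adjusted p = 0.114). Atp6v1g1 and Atp6v1f, a stalk subunit and a rotor subunit of V1, lay higher in every IL10R library, with log2 differences of 0.55 and 0.44 and limma adjusted p of 0.11 and 0.259. Over all members, 5 lay higher and 5 lower without overlap, beside 16.7% and 15.7% of the genes tested. The median log2 difference was 0.03 for cathepsins, 0.17 for pump subunits and 0.00 for all genes tested. Of the membrane proteins, Lamp1 stood at 3449, 3110.2 and 2613 against 2988, 3206 and 3066. Cd68, a scavenger-type glycoprotein of macrophage lysosomes, stood at 2524, 2649.8 and 1833 against 2006, 2778 and 1738. Both groups overlapped for these genes. Npc2, which takes part in cholesterol export, stood at 3576, 3291 and 3199.6 against 4485, 5854 and 4495, without overlap, and did not pass (log2 difference 0.55, limma adjusted p = 0.147).

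These 2 calls depend on single libraries. Without the library labelled IL10R 2, limma called Ctsf (log2 difference -2.15, adjusted p = 0.00344), Ctsl (-0.96, adjusted p = 0.0265) and Ctse (-1.06, adjusted p = 0.0356), and Ctss was at 0.86 with an adjusted p of 0.0951. Without CXhet 2 or CXhet 3 limma called no member, and without IL10R 1 its adjusted p for Ctss was 0.0512. Without IL10R 3 the Ctss adjusted p was 0.103 by limma, leaving 1 call. Over all genes, 200 were called without CXhet 2, 273 without CXhet 3 and 295 without IL10R 3, against 588 in the main fit. Of 6 inhibitors of cathepsins tested, Serpina3g (3.95), Serpina3f (3.02) and Cst7, cystatin F (4.57), rose and Serpinb6a fell by 1.24 on the log2 scale. Cst7 stood at 2.78 to 3.73 in CXhet and at 52.9 to 232 in IL10R libraries, so its fitted difference depends on the pseudocount. Of 37 other lysosomal hydrolases tested, 3 rose (Ppt2 by 1.57 and Naaa by 0.96 among them) and 0 fell. Other lysosomal membrane proteins gave 1 higher of 24 (Clcn7, a chloride-proton exchanger, by 1.58). Lysosome regulators gave 0 of 13, and a list of pump and pump-associated proteins outside the symbol rule gave 0 of 5. Genes of lysosomal sorting, a list of receptors, tagging enzymes, adaptors and a chaperone, gave 2 higher of 10 (Sorl1 by 1.57 and M6pr by 0.72). Marker genes moved in part. Of 12 macrophage markers 1 rose (Fcgr1) and 2 fell (Mrc1 and Cd163), and their sum took 1.85 to 3.11% of the signal in CXhet and 2.16 to 2.38% in IL10R libraries. Epithelial markers, of which 4 of 19 fell, took 0.877 to 2% and 0.557 to 0.952%, and neutrophil markers, of which 2 of 3 rose, took 0.00457 to 0.00686% and 0.0196 to 0.0278%. Their part in the result was not tested. In sorted bulk samples, fewer cells of a type and less RNA per cell cannot be told apart.

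In the second table, without antibiotics, 5 cathepsins fell in IL10R against CX libraries, and no pump subunit did. Limma called 7 members lower and 1 higher of 31 tested, beside 9.91% of the 6612 genes tested (6.03% lower and 3.87% higher). Of 10 cathepsins, 5 fell, and of 14 pump subunits 0 fell and 1 rose. Median log2 differences were -0.71 for cathepsins, -0.20 for pump subunits and 0.01 for all genes tested. The pump subunits lay lower too, by less: 6 of 14 were lower without overlap against 7 of 10 cathepsins, and their mean log2 value was below both CX libraries in all 5 IL10R libraries (difference -0.20, against -0.57 for cathepsins). Members without overlap numbered 20 lower and 1 higher, beside 18.3% and 18.8% of the genes tested.

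Ctsl stood at 575 and 930.3 in the CX libraries and at 316, 292, 383, 299.9 and 372 in the IL10R libraries. It fell by 1.14 on the log2 scale (SE 0.20, limma adjusted p = 0.00308). Ctsb stood at 3419.5 and 3308 against 2001, 1821, 1729.8, 1685 and 2217, and it fell by 0.84 (SE 0.16, limma adjusted p = 0.00397). Every IL10R library lay below both CX libraries for these 2 genes.
Ctsa, a serine carboxypeptidase that also shields other lysosomal enzymes, stood at 903 and 921 against 628, 479, 481, 378 and 461, and fell by 0.93 (SE 0.18, limma adjusted p = 0.00422). Ctsh, an aminopeptidase, stood at 904 and 1023 against 646, 554, 519, 548 and 615, and fell by 0.74 (SE 0.16, limma adjusted p = 0.00772). Ctsc, which activates granule serine proteases, stood at 1403 and 1424 against 1086, 722, 740.5, 710.0 and 852, and fell by 0.80 (SE 0.18, limma adjusted p = 0.0103). The 2 groups did not overlap for any of them.

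Among the other members, Cd68 stood at 479 and 532 in the CX and at 300.4, 246, 258, 241 and 337 in the IL10R libraries, and fell by 0.88 (SE 0.17, limma adjusted p = 0.00422). Npc2 stood at 1840.2 and 1747 against 1103, 1059, 1281, 1198 and 1528, and fell by 0.55 (SE 0.15, limma adjusted p = 0.0267). Both groups were apart in each case. The member that rose was Atp6v0a2, a V0 a-subunit best known from endosomes and the Golgi. It stood at 124 and 134 in the CX and at 224, 219, 173, 173 and 181 in the IL10R libraries, a log2 difference of 0.58 (SE 0.16, limma adjusted p = 0.0316).

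Ctss, which rose in the first table, lay lower here: 3625 and 3319 against 3049, 2280.5, 2120.0, 1862 and 1963, with no overlap and no call (log2 difference -0.64, limma adjusted p = 0.0905). Ctsd stood at 902 and 985 against 977, 716, 582, 538 and 757, with overlap. Lamp1 stood at 1492 and 1517 against 1035, 990.4, 1131, 1166 and 1334, without overlap (log2 difference -0.42, limma adjusted p = 0.087). Ctsf was under the filter in this table, at 36.2 and 30.2 against 9.1, 9.33, 15.8, 9.87 and 22.5. A fit without the filter put its difference at -1.34 on the log2 scale (limma adjusted p = 0.0264).

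The calls against CX rest on 2 control libraries. Without CX 1 only Ctsl was called (log2 difference -1.49, limma adjusted p = 0.0382), and without CX 3 no member was. When only the 7 libraries compared were fitted, limma called 14 members, and edgeR on all groups called 11. Over all genes tested these fits called 1093 and 854, against 655 in the main fit. Other lysosomal genes moved in part, with 6 of 37 hydrolases lower and 0 higher (Man2b1 by -0.87, Dnase2a by -1.07, Lgmn by -0.89 and Tpp1 by -0.82), and 5 of 23 other lysosomal membrane proteins lower and 0 higher (Cln3 by -0.95 and Slc11a1 by -0.86 among them). Of 11 genes of lysosomal sorting 1 rose (Sorl1 by 1.10) and 0 fell. Of 13 lysosome regulators 0 were called, and of 7 pump and pump-associated proteins outside the symbol rule 1 fell. Of 5 cathepsin inhibitors, Serpina3f rose by 2.55 and Cst3, cystatin C, fell by 0.73. Macrophage markers moved too: 8 of 12 were called lower, with a median log2 difference of -1.04, and their sum took 0.762 to 1.04% of the signal in the IL10R and 1.74% in both CX libraries. Epithelial markers took 2.03 to 3.17% and 2.27 to 2.57%, with 1 of 20 called higher, and 3 of 4 dendritic cell markers, 2 of 5 B and plasma cell markers and the 1 T and NK cell marker tested were lower. The part of these markers in the result was not tested.

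IL10R_P19 libraries were set against IL10R libraries. P19 is also the name of a subunit of IL-23, and the labels do not spell it out. Limma called 4 members higher and 0 lower of 31, beside 1.92% of genes tested called higher and 0.514% lower (2.43% in all). Npc2 stood at 1828, 1711, 1856 and 1874 in the IL10R_P19 libraries, above all 5 IL10R values given before, a log2 rise of 0.57 (SE 0.12, limma adjusted p = 0.0174). Ctsb stood at 2446, 3076, 2831 and 3009, also above all 5, and rose by 0.59 (SE 0.13, limma adjusted p = 0.0179). Cd68 stood at 313, 435, 444 and 448, where the lowest value lies within the IL10R range, and rose by 0.56 (SE 0.14, limma adjusted p = 0.0338). The fourth was Atp6v1b2, the nucleotide-binding B subunit of V1, at 92.2, 99.0, 88.5 and 86.9 against 74.1, 53.9, 65.8, 48.6 and 65.96. It rose by 0.58 (SE 0.14, limma adjusted p = 0.038), and its groups did not overlap.

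Medians of the log2 differences were 0.35 for cathepsins, 0.08 for pump subunits and 0.00 for all genes tested. Members without overlap numbered 5 higher and 0 lower, beside 4.07% and 4.57% of the genes tested. The count is sensitive to single libraries. It was 0 without IL10R_32, IL10R_P19_106 or IL10R_P19_107, 1 without IL10R_67 or IL10R_P19_105, 2 without IL10R_61 and 6 without IL10R_P19_100. Other hydrolases gave 5 higher and 0 lower of 37 (Man2b1 by 0.61, Tpp1 by 0.72, Pla2g15 by 0.77 and Prcp by 0.52 among them). Summed macrophage markers took 0.976 to 1.48% of the signal in the IL10R_P19 libraries, and 5 of 12 were called higher. Of dendritic cell markers 3 of 4 were higher, with a median log2 difference of 0.75, as was the 1 T and NK cell marker tested (1.26), and 0 of 20 epithelial markers were called. Their part in the result was not tested. Against CX, limma called 0 members for IL10R_P19 and edgeR 0, beside 0.0302% of genes tested by limma (0.0151% higher and 0.0151% lower). At an unadjusted p under 0.05 were 3 of 31 members, beside 333 of the 6612 genes tested. Ctsl, at 364, 504, 447 and 493, and Ctsa, at 518, 608, 674 and 667, still lay below both CX libraries (log2 differences -0.70 and -0.57, limma adjusted p of 0.795 and 0.875). In that comparison 14 members lay lower and 3 higher without overlap, beside 11.8% and 12.6% of the genes tested.

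With antibiotics, nearly the whole set was higher. In IL10R_abx against IL10R libraries, limma called 27 members higher and 2 lower of 31 tested, beside 57.8% of the genes tested (30.6% higher and 27.3% lower). By role, 9 of 10 cathepsins rose and 1 fell, 11 of 14 pump subunits rose and 1 fell, and all 3 LAMP-family genes and all 3 genes of glycolipid and cholesterol handling rose, as did the pseudogene. Median log2 differences were 1.17 for cathepsins, 0.82 for pump subunits and 0.03 for all genes tested. The members took 2.03 to 2.11% of the signal in the IL10R_abx and 0.905 to 1.1% in the IL10R libraries.

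Cd68 stood at 1208, 1426, 1285 and 1305 in the IL10R_abx libraries, against at most 337 in the IL10R libraries, and rose by 2.25 on the log2 scale (SE 0.14, limma adjusted p = 4.82e-10). Ctsb stood at 8194, 8369, 7063 and 6148, against at most 2217, and rose by 1.97 (SE 0.13, limma adjusted p = 1.03e-09). Atp6v1a stood at 481, 846, 476 and 628, against 217, 168, 197, 206 and 211, and rose by 1.57 (SE 0.16, limma adjusted p = 1.44e-07). For these genes every library with antibiotics lay above every IL10R library.
Ctsd stood at 2235, 1839, 1516 and 2307 and rose by 1.48 (SE 0.16, limma adjusted p = 3.26e-07). Ctsa stood at 1264, 1234, 1058 and 1479.7 and rose by 1.38 (SE 0.14, limma adjusted p = 1.6e-07). Atp6v1c1, a stalk subunit that helps to hold V1 on V0, stood at 237, 258, 164 and 181, against 87.1, 78.8, 77.5, 77.5 and 102, and rose by 1.29 (SE 0.14, limma adjusted p = 3.34e-07). None of these groups overlapped either.
Ctsc stood at 1828, 2073, 2155 and 1745 and rose by 1.26 (SE 0.14, limma adjusted p = 5.05e-07). Ctsl stood at 895, 1072, 768 and 810.0 and rose by 1.41 (SE 0.16, limma adjusted p = 5.65e-07). Both lay above every IL10R library. Over all members, 21 lay higher and 1 lower without overlap, beside 22.7% and 19.5% of the genes tested.

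**Figure D2:**
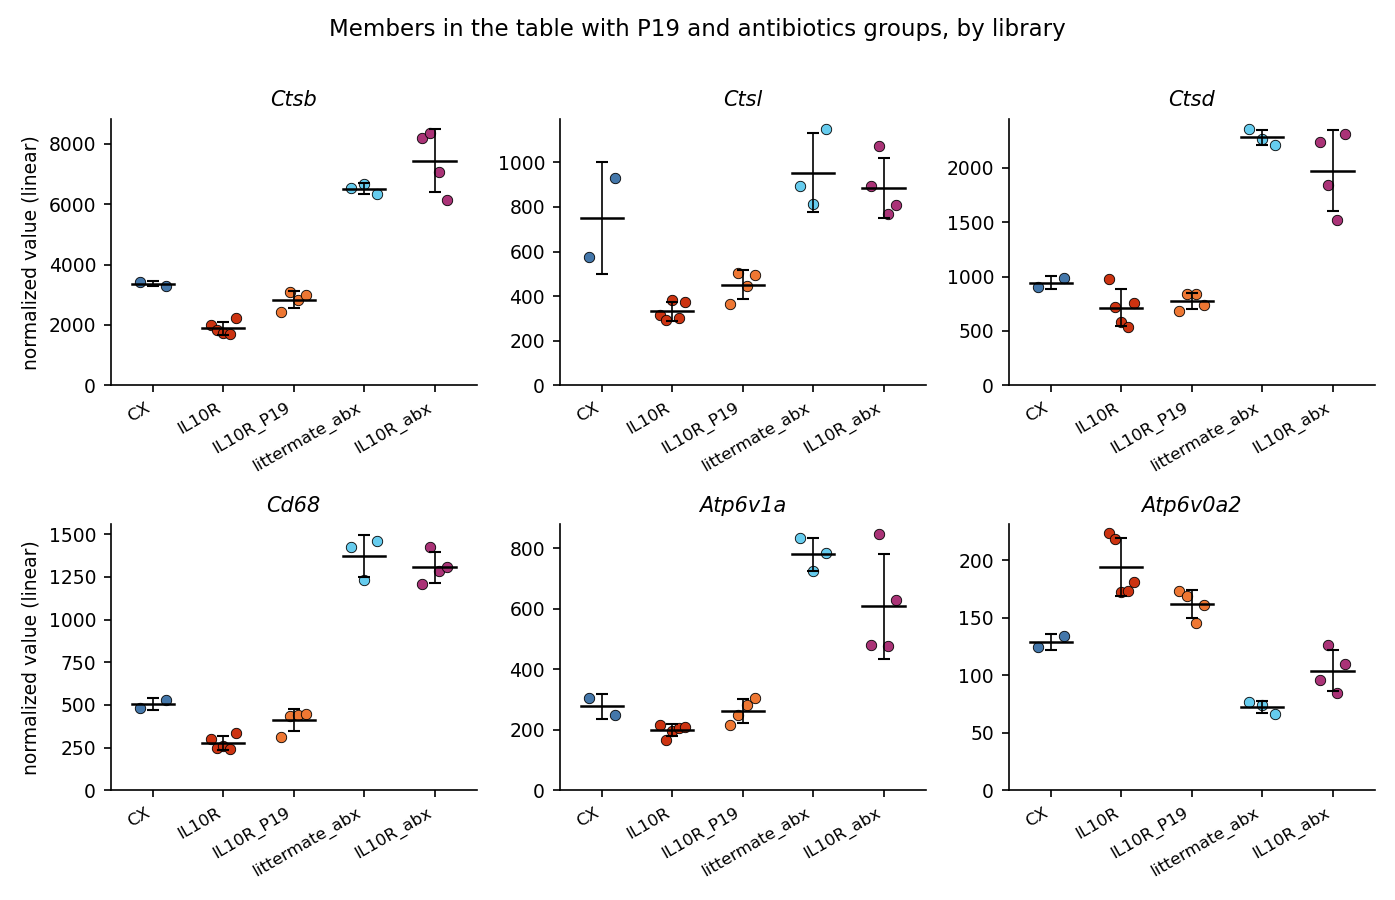
Normalised read counts (linear axis from 0) of 6 members in the second table, 1 dot a library, with the group mean as a line and the SD as an error bar. Ctsb, Cd68, Ctsd and Atp6v1a lie highest in both antibiotics groups, and the mean of Atp6v0a2 is lowest there.

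The members that fell were Atp6v0a2, at 95.8, 126, 84.8 and 109.5 (log2 difference -0.90, SE 0.13, limma adjusted p = 9.32e-06), and Ctse, at 52.2, 77.1, 17.0 and 24.0 (log2 difference -1.31, SE 0.45, limma adjusted p = 0.0192). Atp6v0a2 lay below every IL10R library. Ctse overlapped with them, at 29.9, 95.4, 114, 131 and 140.0. Atp6v1g1 and Atp6v1h, the latter a subunit that keeps detached V1 from using ATP, did not pass. Among the rises the largest adjusted p-values were those of Lamp2, Atp6v0e and Ctso, at 0.0141, 0.0289 and 0.0313 by limma, and their libraries overlapped. Ctsf, under the filter, stood at 50.1, 41.4, 62.7 and 71.1, above every IL10R library, and a fit without the filter put its rise at 2.06 (limma adjusted p = 4.7e-06).

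Windows with the core CACGTG belonged to 8 of the members tested here, and 8 rose, with a median log2 difference of 1.21. Windows without it belonged to 13, and 13 rose, with a median of 0.87, beside 30.6% of the genes tested called higher. The members that fell, Atp6v0a2 and Ctse, and those that did not pass, Atp6v1g1 and Atp6v1h, had no window at hand. The difference between these medians was not tested. Regulators of the lysosome moved in part: 6 of 13 tested rose and 0 fell, among them Flcn (log2 difference 2.20), Rragc (1.53), Tfe3 (1.32) and Lamtor3 (1.17). Of the other hydrolases 27 of 37 rose and 3 fell, led by Scpep1 (1.52), Pla2g15 (2.17), Gla (2.22) and Lgmn (1.86), and of other lysosomal membrane proteins 18 of 23 rose and 1 fell. Of 11 genes of lysosomal sorting 5 rose and 3 fell. Those that fell, Sort1 (-1.93), Igf2r (-2.10) and Sorl1 (-1.02), are receptors, which carry enzymes from the Golgi to the lysosome. Marker genes moved with the antibiotics groups. All 12 macrophage markers tested rose, with a median log2 difference of 1.68, and their sum took 2.09 to 2.7% of the signal in the IL10R_abx libraries. All 20 epithelial markers fell, with a median of -2.07, and took 0.407 to 0.644% in the IL10R_abx against 2.03 to 3.17% in the IL10R libraries. Of dendritic cell markers 3 of 4 rose, of B and plasma cell markers 2 of 5 rose and 2 fell, and of stromal and endothelial markers 5 of 7 fell. Of 2 neutrophil markers 1 rose, as did the 1 T and NK cell marker tested. Their part in the result was not tested.

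Littermates given antibiotics were set against CX libraries, which differ in title as well as in treatment, so genotype and treatment cannot be told apart. Limma called 16 members higher and 2 lower of 31, beside 34% of the genes tested (16.5% higher and 17.5% lower). Pump subunits held more of these calls than cathepsins, with 8 of 14 higher and 1 lower against 3 of 10 higher and 1 lower. The difference between these shares was not tested. Median log2 differences were 0.71 for pump subunits, 0.42 for cathepsins and 0.04 for all genes tested. Members without overlap numbered 24 higher and 2 lower, beside 33.1% and 29.1% of the genes tested.

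Cd68 stood at 1427, 1232 and 1460.3 in the littermate_abx libraries, against 479 and 532 in CX, and rose by 1.44 (SE 0.19, limma adjusted p = 2.17e-05). Atp6v0a1, a V0 a-subunit, stood at 296, 265 and 353 against 97.3 and 111, and rose by 1.53 (SE 0.20, limma adjusted p = 2.51e-05). Atp6v1a stood at 834, 725 and 783 against 307 and 248, and rose by 1.49 (SE 0.22, limma adjusted p = 5.32e-05). The groups were apart for each.
Atp6v1c1 stood at 252, 264 and 217 against 103 and 114 and rose by 1.16 (SE 0.19, limma adjusted p = 0.00017). Ctsd stood at 2357, 2265 and 2214 and rose by 1.27 (SE 0.22, limma adjusted p = 0.000259). Ctsb stood at 6537, 6676 and 6333 and rose by 0.95 (SE 0.17, limma adjusted p = 0.000367). Atp6v1d, of the V1 central shaft, stood at 303, 444 and 287 against 153 and 141, and rose by 1.20 (SE 0.25, limma adjusted p = 0.001). These groups did not overlap.
Atp6v0c, the proteolipid of the V0 ring, and its pseudogene Atp6v0c-ps2 differed in value by at most 1.23% in any library of this table, so they are 1 measurement that is counted as 2 members. Atp6v0c stood at 254, 237 and 293 against 149 and 140.1 and rose by 0.84 (SE 0.18, limma adjusted p = 0.00113). Ctsl, at 896, 814 and 1152 against 575 and 930.3, overlapped and did not pass (log2 difference 0.37, limma adjusted p = 0.22), and neither did Ctss, at 3767, 4116 and 3408. Atp6v0a2 fell by 0.83 (76.4, 74.5 and 66.4, limma adjusted p = 0.00155) and Ctse by 1.86 (8.26, 21.7 and 21.1 against 70.4 and 50.1, limma adjusted p = 0.0264). Other hydrolases gave 17 higher and 1 lower of 37 (Scpep1 by 1.29 and Gla by 2.04 among the higher), and regulators 4 higher and 0 lower of 13 (Flcn by 1.60, Tfe3 by 0.96, Rragc by 0.95 and Fnip1 by 1.61). Marker genes moved here too. Of 12 macrophage markers 7 rose and 0 fell. All 20 epithelial markers fell, with a median of -2.15 on the log2 scale and 0.357 to 0.531% of the signal in the littermate_abx libraries. Of 4 dendritic cell markers 2 rose and 1 fell. Of 2 neutrophil markers 1 rose, as did the 1 T and NK cell marker tested (1.16). Of 5 B and plasma cell markers 1 fell, and of 7 stromal and endothelial markers 2 fell. Their part in the result was not tested.

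Between IL10R_abx and littermate_abx, limma called 0 of 31 members and edgeR 0, beside 0.0302% of the genes tested by limma (0.0151% higher and 0.0151% lower). At an unadjusted p under 0.05 were 10 members, beside 997 of the 6612 genes tested. Of those 10, 6 were pump subunits. Without overlap, Atp6v0a1 (161.1, 159.9, 210.2 and 233 against 296, 265 and 353, log2 difference -0.68), Atp6v1d (-0.60) and Atp6v0c with its pseudogene (-0.30 and -0.31) lay lower and Atp6v0a2 (0.50) higher in IL10R_abx libraries, beside 3.04% and 4.82% of the genes tested. Some members were uneven within IL10R_abx. Lamp2, a membrane protein needed for fusion with autophagosomes, stood at 122 and 60.2 in IL10R_abx_160 and IL10R_abx_161, at 224 and 254 in IL10R_abx_495 and IL10R_abx_497, and at 267, 245 and 287 in the littermate_abx libraries. Atp6v0b, another V0 ring subunit, stood at 394, 340.4, 519 and 808 in that order, against 765, 921 and 819.7. Both were picked after their values were seen. Without IL10R_abx_497, limma called 5 members: Atp6v0b (log2 difference -1.02, adjusted p = 0.0147), Atp6v0e (0.83, adjusted p = 0.0197), Atp6v0a1 (-0.78, adjusted p = 0.0215), Lamp2 (-1.16, adjusted p = 0.0357) and Ctsz (-0.79, adjusted p = 0.0468).

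Whether the IL10R difference itself changed with antibiotics was tested as an interaction, the IL10R minus CX difference without antibiotics less the IL10R_abx minus littermate_abx difference with them. The control libraries, CX and littermate_abx, differ in title as well as in treatment. Any difference between these kinds of control is part of the interaction and cannot be told apart from antibiotics. Limma called 0 members, beside 0.106% of the genes tested. At an unadjusted p under 0.05 were 9 of 31 members, beside 699 of the 6612 genes tested. Ctsb had the smallest p, at -1.02 on the log2 scale (SE 0.22, limma adjusted p = 0.0683), and edgeR called it alone among the members (adjusted p = 0.0459). EdgeR called 24 genes in all there. Ctsl was at -1.04, Ctsc at -0.96 and Ctss at -0.97, with limma adjusted p of 0.115, 0.102 and 0.236. The median was -0.62 for cathepsins, -0.12 for pump subunits and -0.02 for all genes tested. Macrophage markers had a median of -0.90, with 0 of 12 called. Of dendritic cell markers 2 of 4 were called lower, with a median of -1.22. Epithelial markers had a median of -0.06, with 0 of 20 called. The part of these markers in the interaction was not tested.
IL10R_abx against IL10R_P19 gave 24 members higher and 2 lower by limma, beside 48.3% of the genes tested (25.8% higher and 22.4% lower). Without overlap, 19 lay higher and 2 lower, beside 21.5% and 19.1% of the genes tested. The largest log2 differences were those of Cd68 (1.68), Ctsb (1.38) and Ctsd (1.34), and the 2 lower members were again Atp6v0a2 (-0.65) and Ctse (-1.35). This comparison shares the IL10R_abx libraries with that against IL10R. Markers moved here as well: 11 of 12 macrophage markers were higher, with a median log2 difference of 1.10, and all 20 epithelial markers were lower, with a median of -1.89. Of dendritic cell markers 3 of 4 were higher and 1 lower, and of B and plasma cell markers 3 of 5 were higher and 2 lower. Of 2 neutrophil markers 1 was higher, as was the 1 T and NK cell marker tested, and 1 of 7 stromal and endothelial markers was lower. Their part in the result was not tested.

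The V0 a-subunits, which target the pump to different membranes, did not move together. The log2 difference of Atp6v0a1 minus Atp6v0a2 within a library was -1.33 to -0.56 in IL10R, -0.90 to -0.16 in IL10R_P19 and -0.35 and -0.27 in CX libraries. It was 0.34 to 1.30 in the IL10R_abx and 1.82 to 2.39 in the littermate_abx libraries. In the second table all 7 libraries with antibiotics lay above all 11 without. In the first table, of untreated mice, this difference was 0.25 to 1.64, across the IL10R_abx range. In the chimeras it was -1.36 to -0.04. Tcirg1, the a3 subunit, which the symbol rule does not take, rose in IL10R_abx against IL10R (log2 difference 1.21, limma adjusted p = 8.31e-06) and in littermate_abx against CX (0.77, limma adjusted p = 0.0174). The pair Atp6v0a1 and Atp6v0a2 was chosen after its values were seen, and its absolute size says nothing about which subunit was more abundant.

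**Figure D3:**
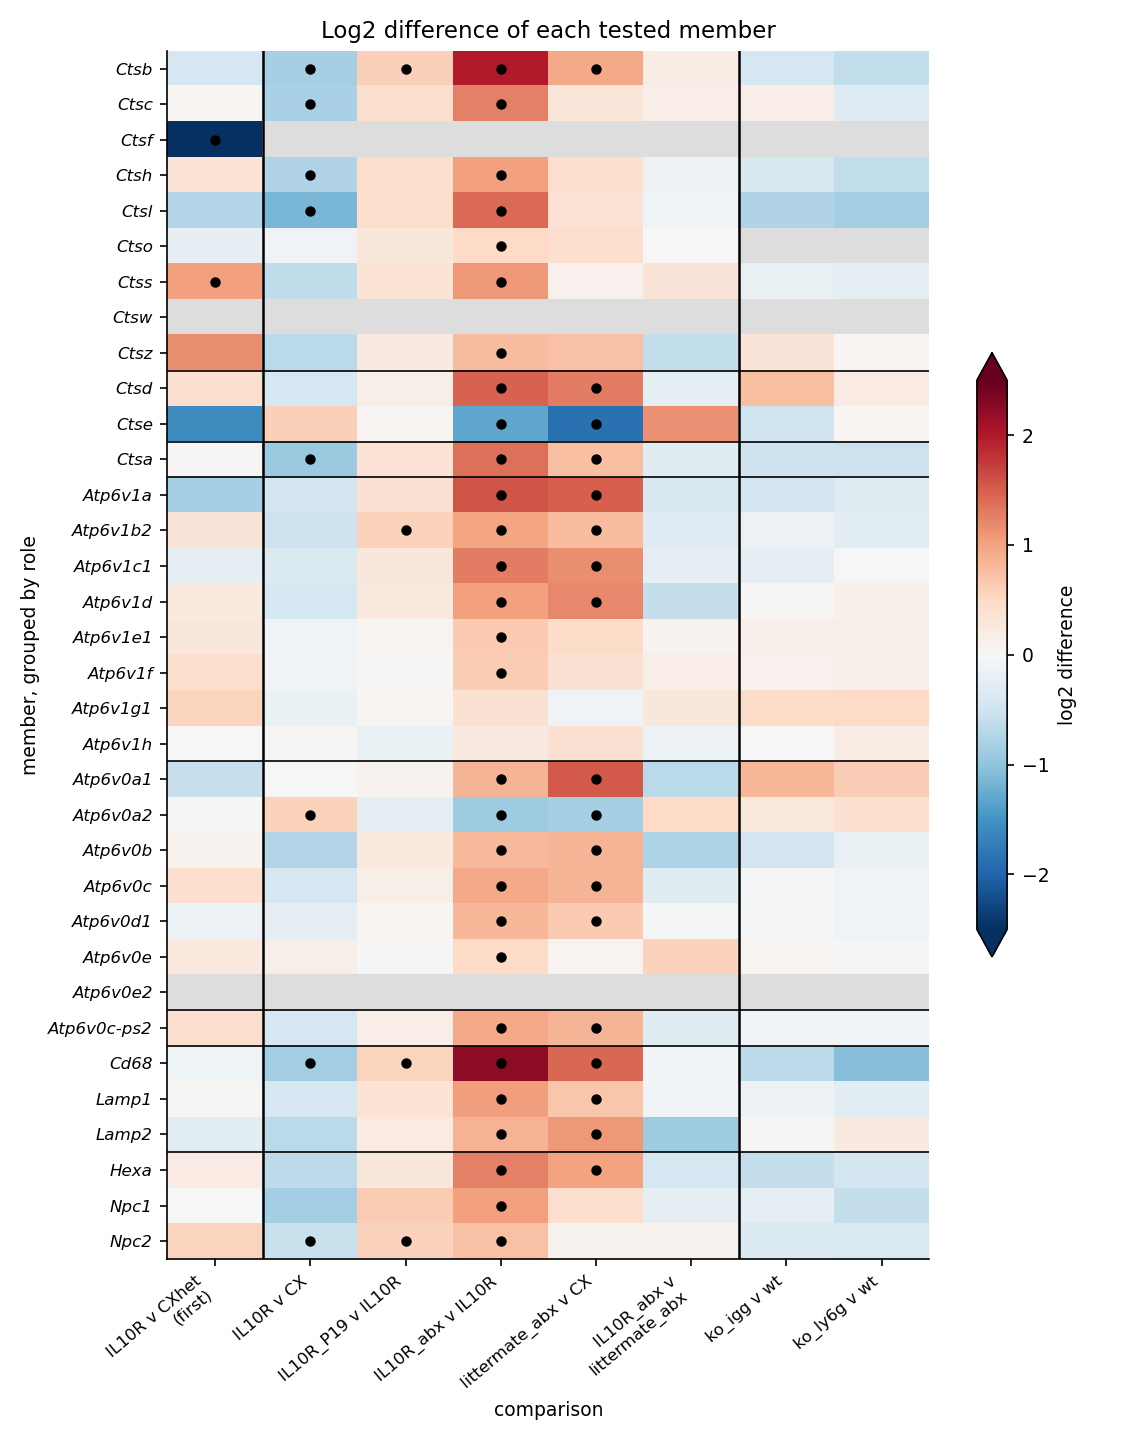
Log2 difference of every tested member (vertical axis, by role) in 8 comparisons (horizontal axis), from -2.5 in blue to 2.5 in red, with a black dot where limma's adjusted p is under 0.05 and grey where a member was not tested. In the IL10R_abx against IL10R column 27 members are red and dotted and Atp6v0a2 and Ctse are blue and dotted, and the chimera columns hold no dot.

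In the chimeras, none of the 30 members tested and described here passed the test. In ko_igg against wt libraries limma called 0 of them, beside 9.19% of the 6594 genes tested (5.73% higher and 3.46% lower). EdgeR, on recovered reads that leave out ko_igg 16 and wt 3, called 0 members, beside 56 genes in all. With so few genes called by edgeR, this 0 says little about the members. At an unadjusted p under 0.05 in limma were 4 members, beside 1829 of the 6594 genes tested. In ko_ly6g against wt libraries limma called 0 members, beside 4.34% of the genes tested (2.99% higher and 1.35% lower). EdgeR called 0 members there, again beside only 56 genes in all. Here 7 members had an unadjusted p under 0.05, beside 1338 of the 6594 genes tested. Hexa, which takes part in ganglioside breakdown, stood at 3149, 1056, 1173 and 1012 in wt and at 935, 683 and 1274 in ko_igg libraries, with overlap. Wt 1 held the highest Hexa value by far.

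Ctsl stood at 732, 752, 964 and 983 in wt, at 749.9, 517 and 326 in ko_igg and at 353, 608 and 494 in ko_ly6g libraries (log2 differences -0.76 and -0.84, limma adjusted p of 0.117 and 0.13). Ctsb stood at 9254, 3786, 5317 and 4212 in wt against 4448, 3619 and 3762 in ko_igg. Ctss stood at 9153, 4854, 6038 and 6343 in wt against 7727, 5331 and 4308 in ko_igg. Ctsb and Ctss overlapped.
Ctsd stood at 3947, 1568, 1828 and 1384 in wt and at 3333, 2640.1 and 4262 in ko_igg libraries, where wt 1 alone reached the ko_igg range. Cd68 stood at 1976, 672, 928 and 802 against 768, 489 and 669, and Lamp1 at 5563, 2707, 3310.5 and 2568 against 3017, 2460.2 and 3879, both with overlap. Atp6v0a1 stood at 253, 154, 216 and 119.5 in wt and at 289, 281 and 401 in ko_igg, without overlap (log2 difference 0.84, limma adjusted p = 0.0752). Without wt 1, which had the fewest reads of the libraries recovered in this table, limma called Ctsd (1.08, adjusted p = 0.00837) and Atp6v0a1 (1.01, adjusted p = 0.0198) higher in ko_igg. In ko_igg against wt, 3 members lay higher and 0 lower without overlap, beside 17.1% and 11.5% of the genes tested. In ko_ly6g against wt, 2 lay higher and 5 lower, beside 13.8% and 7.22%. Of other lysosomal genes, Clcn7 rose by 0.96 and Glb1 and Cd63 fell by 0.62 and 0.66 in ko_igg against wt, of 35 hydrolases and 22 membrane proteins tested. Summed macrophage markers took 0.985 to 2.81% of the signal in wt, 0.763 to 1.08% in ko_igg and 0.52 to 1.18% in ko_ly6g libraries, and Cx3cr1 and Mrc1 were the 2 of 11 called lower against wt in both. Of 3 dendritic cell markers tested 2 were lower in ko_igg and 0 in ko_ly6g, 1 of 3 neutrophil markers was higher in each, and 2 of 20 epithelial markers were lower in each. Their part in the result was not tested.

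Between ko_ly6g and ko_igg, limma called 0 members, with 0 at an unadjusted p under 0.05 and 0 by edgeR, beside 0% of the genes tested, of which 127 had an unadjusted p under 0.05. Ctsc alone lay apart, at 1698, 1318 and 1456 in ko_igg and at 862, 1249 and 1111 in ko_ly6g libraries, while 3.58% of genes tested lay higher and 3.82% lower without overlap. The median log2 difference was -0.19 for cathepsins, 0.03 for pump subunits and 0.00 for all genes tested.
Ctsw, a cathepsin best known from cytotoxic T and NK cells, is listed in this table only and lay under the filter. It stood at 0, 3.67, 2.45 and 3.15 in wt, at 53.2, 46.3 and 62.6 in ko_igg and at 27.4, 27.02 and 36.6 in ko_ly6g libraries, so that the 3 groups did not overlap. The wt values of libraries 1, 2 and 4 rest on 0, 4 and 3 reads. A fit without the filter called it higher than wt in both (limma adjusted p of 0.00222 and 0.0111) and not different between ko_ly6g and ko_igg (log2 difference -0.82, limma adjusted p = 1). The fitted differences from wt depend on the pseudocount and are not given. Of 12 T and NK cell markers, 3 are listed here. Gzmb stood at 2.98, 1.83, 4.28 and 2.10 in wt, at 58.1, 39.4 and 51.2 in ko_igg and at 15.5, 20.9 and 25.9 in ko_ly6g. Lck stood at 14.9, 11.9, 21.4 and 28.3, then 66.1, 85.2 and 91.1, then 62.0, 40.5 and 71.7. Cd4 was highest in a wt library, at 259, and its groups overlapped. The part of such cells in the Ctsw values was not tested.

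**Figure D4:**
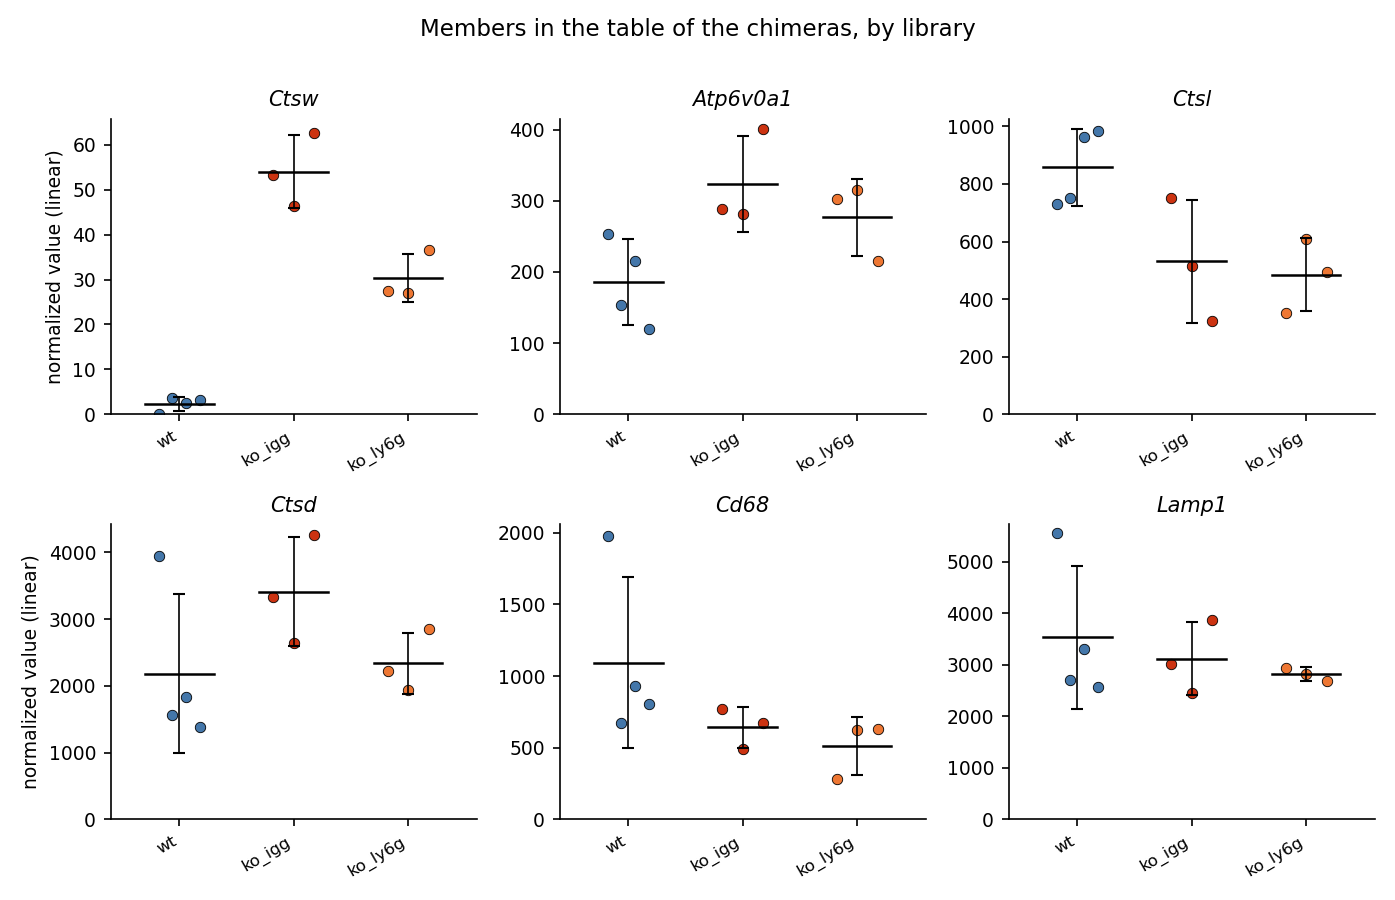
Normalised read counts (linear axis from 0) of 6 members in the chimeras, 1 dot a library, with the group mean as a line and the SD as an error bar. Ctsw lies higher in all 6 ko libraries than in all 4 wt libraries, and wt 1 stands above the other wt libraries for Ctsd and Cd68.

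The cathepsins were also set against the pump within each library, as the mean log2 value of the tested cathepsins minus that of the tested pump subunits. Its absolute size has no meaning across genes, and only differences between libraries of 1 table are read, with no test. It was 1.66 ± 0.06 (SD, n = 3) in CXhet and 1.36 ± 0.15 (SD, n = 3) in IL10R libraries of the first table, without overlap. Each cathepsin counts equally there, and the largest falls were those of the low members Ctsf (-2.71) and Ctse (-1.56). Ctss and Ctsz lay higher, by 1.02 and 1.15. The median log2 difference was 0.03 for cathepsins and 0.17 for pump subunits. Cathepsins took 0.867 to 1.21% of the signal in CXhet and 1.09 to 1.31% in IL10R libraries. How far the change rests on Ctsf and Ctse was not tested. In the second table the measure was 2.01 ± 0.04 (SD, n = 2) in CX, 1.64 ± 0.06 (SD, n = 5) in IL10R and 1.85 ± 0.09 (SD, n = 4) in IL10R_P19 libraries. IL10R libraries lay below CX and, by a narrow gap, below IL10R_P19 libraries.
With antibiotics it was 1.90 ± 0.12 (SD, n = 4) in IL10R_abx and 1.73 ± 0.06 (SD, n = 3) in littermate_abx libraries. These groups were narrowly apart, and IL10R_abx lay above IL10R while littermate_abx lay below CX. Ctse, a low member, counts here like any other cathepsin. It stood at 50.1 to 70.4 in CX, 8.26 to 21.7 in littermate_abx and 17.0 to 77.1 in IL10R_abx libraries. Median log2 differences between littermate_abx and CX were 0.42 for cathepsins and 0.71 for pump subunits. How far these changes rest on Ctse was not tested. In the chimeras the measure was 2.07 ± 0.14 (SD, n = 4) in wt, 1.86 ± 0.14 (SD, n = 3) in ko_igg and 1.68 ± 0.11 (SD, n = 3) in ko_ly6g libraries. Wt overlapped with ko_igg and not with ko_ly6g.
The measure depends on the filter, without which low cathepsins and the pump subunit Atp6v0e2 enter. With no filter, the change from wt to ko_igg turned from -0.21 to 0.24 and that from wt to ko_ly6g went from -0.40 to -0.00. The change from CX to littermate_abx went from -0.29 to -0.01, that from littermate_abx to IL10R_abx from 0.18 to 0.06 and that from IL10R to IL10R_abx from 0.26 to 0.48. In the fit without the filter Atp6v0e2 differed by -2.35 on the log2 scale between littermate_abx and CX (limma adjusted p = 0.00763) and by -1.17 between IL10R_abx and IL10R libraries (limma adjusted p = 0.0366).

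**Figure D5:**
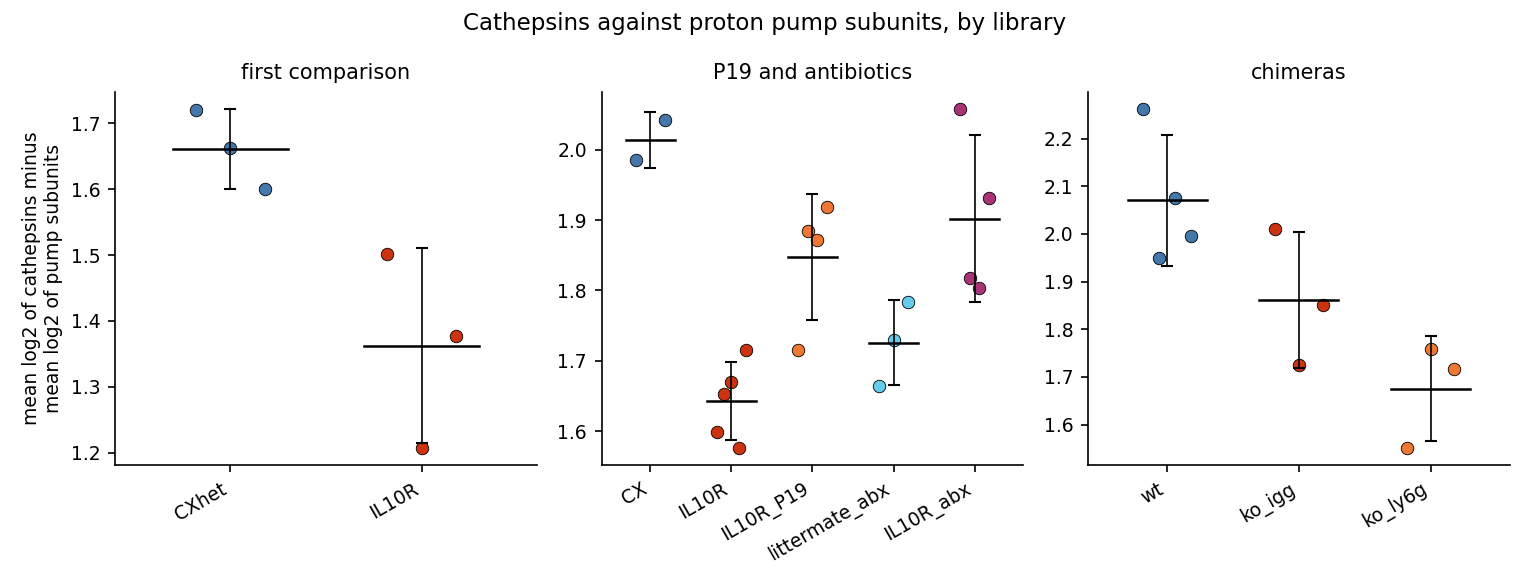
Mean log2 value of the tested cathepsins minus that of the tested pump subunits (vertical axis, log2 units), 1 dot a library, with the group mean as a line and the SD as an error bar, for the 3 tables side by side. IL10R libraries lie below CXhet and CX libraries, and the ko_ly6g libraries lie below the wt libraries, a change of -0.40 that goes to -0.00 with no filter. In the first table the largest falls among cathepsins were those of the low members Ctsf and Ctse.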

How the data were processed

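Polyadenylated RNA of sorted colonic macrophages was captured on oligo(dT) beads and amplified by in vitro transcription, per the labels' protocols. The submitters' processing notes name bcl2fastq, HISAT 0.1.6, HOMER and the mm9 build, with no roles. The deposited values are a normalised signal per gene: in 32 of 34 libraries every value was a whole multiple of 1 read's worth (tolerance 0.01 read, 100% of values), so the authors divided reads by 1 factor per library, and depth is known from recovered reads. How the factors, the gene filter and strand were set is not given in the sources used here. Empty lines without a gene name were left out, and they hold no values.

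For each table, limma 3.58.1 (R 4.3.3; limma-trend, robust) was fitted to log2(value + pseudocount), with pseudocounts of 1.31, 0.997 and 0.982, on all libraries of the table and on genes whose mean was above the lower quartile (53.2, 40.4 and 68.0). P-values were adjusted by Benjamini-Hochberg over all genes tested, and called means under 0.05. Fold changes are on the log2(value + pseudocount) scale, which understates low genes. A gene that the symbol rule also takes and a gene of another list are not reported here. The filter left 32, 31 and 30 of the 33 members described in each table: Atp6v0e2 was under it in every table, Ctsf in the second, and Ctso and Ctsw in the third. Ctse, with a mean of 68.3 in the third table, lay just above it and Ctsf, with 39.3 in the second, just below. Ctsf is not listed in the third table. Tables were normalised separately, so tests stay within a table. EdgeR 4.0.16 (quasi-likelihood) ran on the recovered reads as an alternative. Other alternatives were another pseudocount, filter or scaling, a fit of only the groups compared, a replicate block and leaving out each library. The scripts were tested on simulated data. Members and lists were chosen with earlier results of these data known. Values in every library are given for called members (up to 8 per comparison by adjusted p), for Ctss, Ctsl, Ctsb, Ctsd, Cd68 and Lamp1 between deficient and control libraries, and of other lists for up to 4 called genes.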

Additional observations from a re-analysis of the deposited data

Results flagged for a closer look

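Among 132 groups of 4 or 5 libraries checked, 1 library stood far from the rest of its group in 7, and chance gives about 1 in 20. Wt 1, with the fewest recovered reads of the chimeras, accounts for 4 of them, with Atp6v0b at 1151.9, Atp6v1c1 at 294.68, Ctsz at 3729.6 and Hexa at 3149.2, each above the other wt libraries. IL10R_P19_100 was lowest in its group for Cd68 (313.05) and Lamp1 (1367). IL10R_27 of the second table was highest in its group for Atp6v0e (300.39).

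Some members moved to opposite sides in 2 comparisons with no overlap of libraries in either. These differences between tables were not tested. Ctss differed by 1.02 on the log2 scale between IL10R and CXhet libraries of the first table and by -0.64 between IL10R and CX libraries of the second. Ctsz did so with 1.15 and -0.67, and Npc2 with 0.55 and -0.55. Atp6v0a1 differed by 0.84 between ko_igg and wt and by -0.68 between IL10R_abx and littermate_abx libraries.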

How the results depend on the processing

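The number of members called moved in both directions. Fitting only the groups compared gave 14 for IL10R against CX (8 with all groups), 20 for littermate_abx against CX (18), 25 for IL10R_abx against IL10R (29) and 21 for IL10R_abx against IL10R_P19 (26). Over all genes tested, these fits called 1093 (655 with all groups), 2647 (2250), 3420 (3823) and 2748 (3191). With no filter the members called in the last 3 comparisons were 20, 31 and 28, beside 2729, 4901 and 4055 of all genes. Without it 1 member, Ctsw, was called for ko_igg and 1 for ko_ly6g against wt (0 each with it), beside 817 and 403 genes. EdgeR called 1 member for the interaction (0 by limma), beside 24 genes in all. Without 1 library each, the counts ranged from 0 to 3 in the first table, 0 to 10 for IL10R against CX, 0 to 6 for IL10R_P19 against IL10R, 0 to 0 for IL10R_P19 against CX, 0 to 5 for IL10R_abx against littermate_abx, 26 to 30 for IL10R_abx against IL10R, 14 to 18 for littermate_abx against CX, 21 to 26 for IL10R_abx against IL10R_P19, 0 to 2 for ko_igg against wt, 0 to 0 for ko_ly6g against ko_igg and 0 to 0 for ko_ly6g against wt. Where a group was left with 1 library, it was assumed to vary like the others.

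The cathepsin minus pump change with no filter was -0.440 for IL10R against CX, 0.056 for IL10R_abx against littermate_abx, 0.484 for IL10R_abx against IL10R, -0.012 for littermate_abx against CX, 0.228 for IL10R_abx against IL10R_P19, 0.236 for ko_igg against wt and -0.002 for ko_ly6g against wt. Adding the pseudogene to the pump, an alternative chosen after seeing the data, moved no change by more than the spread between libraries. Single small differences turned sign without 1 library: Cd68 in the first table ranged from -0.304 to 0.034 (positive without IL10R 3), Lamp1 there from -0.086 to 0.114 (negative without CXhet 3, and at -0.005 without IL10R 2), and Lamp1 in ko_igg against wt from -0.304 to 0.108 (0.024 without ko_igg 16, 0.108 without wt 1). The cause was not tested.

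A replicate block in the first table, whose groups share numbers, called 3 members against 2. Same-numbered libraries correlated at -0.06, 0.15 and 0.35 after removing group means, and differently numbered ones at -0.3 to 0.15. With 3 libraries in a group the deviations sum to 0, so these correlations cannot decide whether the numbers pair libraries. Depth limits the low members: Ctsf and Ctsw values rest on few reads in some libraries. The 2 CX libraries limit every comparison with CX.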
